A study of Danio rerio with 34 samples.

Results

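Of the 12 zebrafish testis RNA libraries made after exposure to PCB126, 7 kept a count composition close to that of the DMSO controls, and these 7 were compared with the 6 DMSO libraries over all genes. An exposed library was kept where its 10 most counted genes held under 6% of its raw counts. The series holds 18 RNA libraries in all, and the 5 exposed libraries at or above 6% were left out and compared with no group in any test. Of the fits, they entered only the alternative fit of all 18 libraries, as a group of their own. Kept were replicates 1, 2, 3 and 5 of 3 nM and replicates 2, 3 and 4 of 10 nM, and both concentrations were pooled. The rule used measured values, so the share of the top genes, and the 22 genes that were ever among the 10 most counted of an exposed library, are given as a description and were not tested.

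PCB126 is a dioxin-like polychlorinated biphenyl, and the series asks what a short exposure does to gene expression and DNA methylation in the testis. The groups were adult zebrafish given DMSO, the carrier, or 3 nM or 10 nM PCB126 for 24 h. Testes were sampled after 7 further days in contaminant-free water. The labels name no strain, genotype or number of fish per library, and the series text calls the replicates biological.

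PCB126 acts through the aryl hydrocarbon receptor (AHR), a ligand-activated transcription factor that waits in the cytosol with Hsp90 and co-chaperones. On binding a ligand it moves to the nucleus, pairs with ARNT and switches on genes of the CYP1 family of monooxygenases, together with its own repressor AHRR and TIPARP, which limit the response. Zebrafish carry several receptor genes, and ahr2 mediates most of the toxicity of dioxin-like compounds in the embryo. Symbols in capitals are those of human orthologs (zebrafish cyp1a appears as CYP1A1), and some are given to more than 1 zebrafish gene. Levels are counts per 1 M counts (CPM) on scaled library totals, not divided by gene length, so they are compared between libraries and not between genes.

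The top 10 genes held 3.45 to 4.70% of counts in DMSO (median 3.97%) and 4.02 to 5.20% in the kept libraries (median 4.21%). The kept library closest to the threshold was 3 nM replicate 1 at 5.20%, and the left-out library closest to it was 3 nM replicate 4 at 6.36%. Totals ran from 16.2 to 29.8 M counts in DMSO and from 21.2 to 29.1 M in the kept libraries. Mitochondrial genes took 1.68 to 2.94% of counts in DMSO, 2.21 to 3.56% in the kept libraries and 3.8 to 7.22% in the left-out ones. The kept and DMSO ranges overlapped, with 3 nM replicate 1 highest of the 13 at 3.56%. The correlation of log2 CPM across genes with the DMSO mean was 0.970 to 0.986 for DMSO libraries, each set against the mean of the others, 0.976 to 0.979 for kept ones and 0.897 to 0.941 for left-out ones. The 0.970 was that of DMSO replicate 1. All other DMSO libraries, at 0.9789 or more, lay above every kept library, at 0.9787 or less. The medians were 0.982 for DMSO and 0.977 for kept libraries. On the first principal component of the 13 libraries, which held 21.1% of the variance, DMSO replicate 1 lay at -86.4 and the other 12 lay between -35.2 and 39.1. Several results are therefore given without DMSO replicate 1 too.

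**Figure D1:**
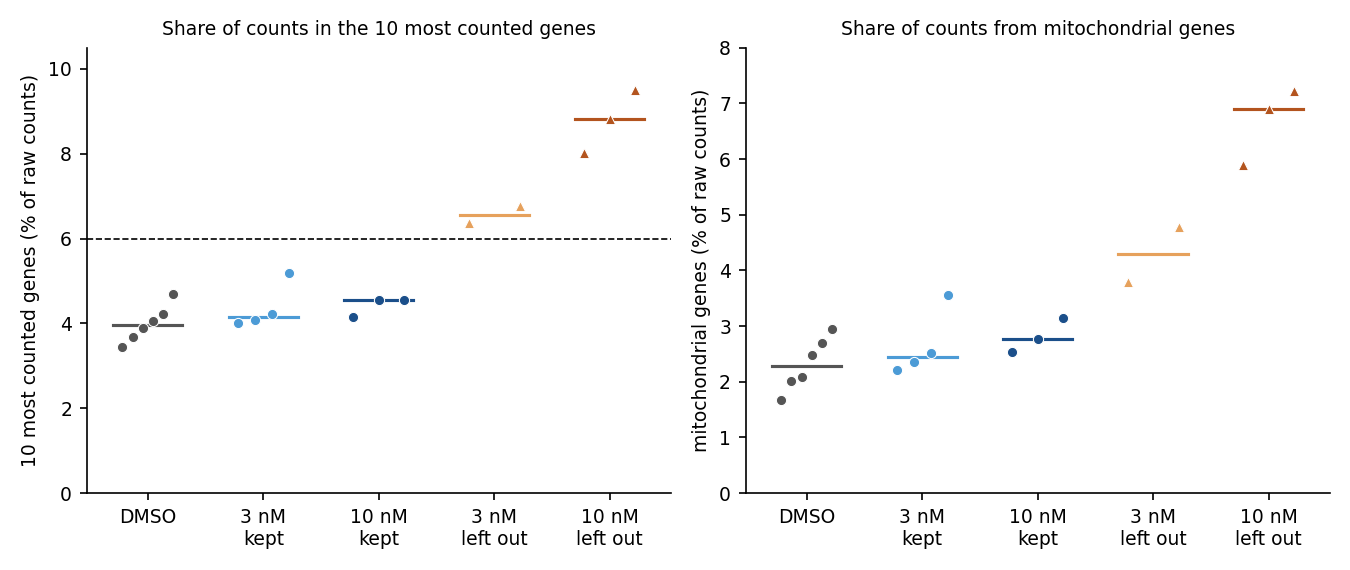
Share of raw counts (%) held by the 10 most counted genes (left) and by mitochondrial genes (right), 1 point per library, with the median of each group as a line and the 6% threshold dashed. Kept libraries (blue circles) reach 5.20% on the left and 3.56% on the right, and left-out libraries (triangles) start at 6.36% and 3.8%.

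With 23539 genes tested by edgeR's quasi-likelihood test, 310 differed between the kept exposed and the DMSO libraries at a Benjamini-Hochberg adjusted p under 0.05, which is 1.32% of the genes tested. Of these, 157 were higher (0.667%) and 153 lower (0.65%), and 94 changed by at least 1 on the log2 scale, 63 upwards and 31 downwards. In 190 of the 310 the CPM ranges of the groups did not overlap, 104 with every kept library higher and 86 with every one lower. Over all genes tested this was so in 0.926% and 0.616%. The 310 were called from these same libraries, so the non-overlap among them is a description and adds no support. The median log2 fold change over all genes was -0.02, and 4417 of the 23539 genes had an unadjusted p under 0.05. These p-values measure the spread between libraries of which the exposed ones were chosen by composition, so they do not describe exposed testes in general.

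The number of calls depended on the libraries and the tool. Leaving out 1 library at a time gave 118 to 595 calls, the lowest without 10 nM replicate 3 and the highest without DMSO replicate 3, and 96 of the 310 genes (59 higher, 37 lower) were called in all 13 of those fits. DESeq2 called 1308 genes for the kept exposed libraries against DMSO, among them 308 of the 310. A set of 45 genes, 30 higher and 15 lower, was called under every alternative run, and it includes CYP1A1, CYP1B1, ahrra, ahr2, timd4, musk, FST and ITGBL1. Of these, CYP1B1, ahrra and timd4 were so low in DMSO that they passed the filter on low counts through the kept libraries.

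**Figure D2:**
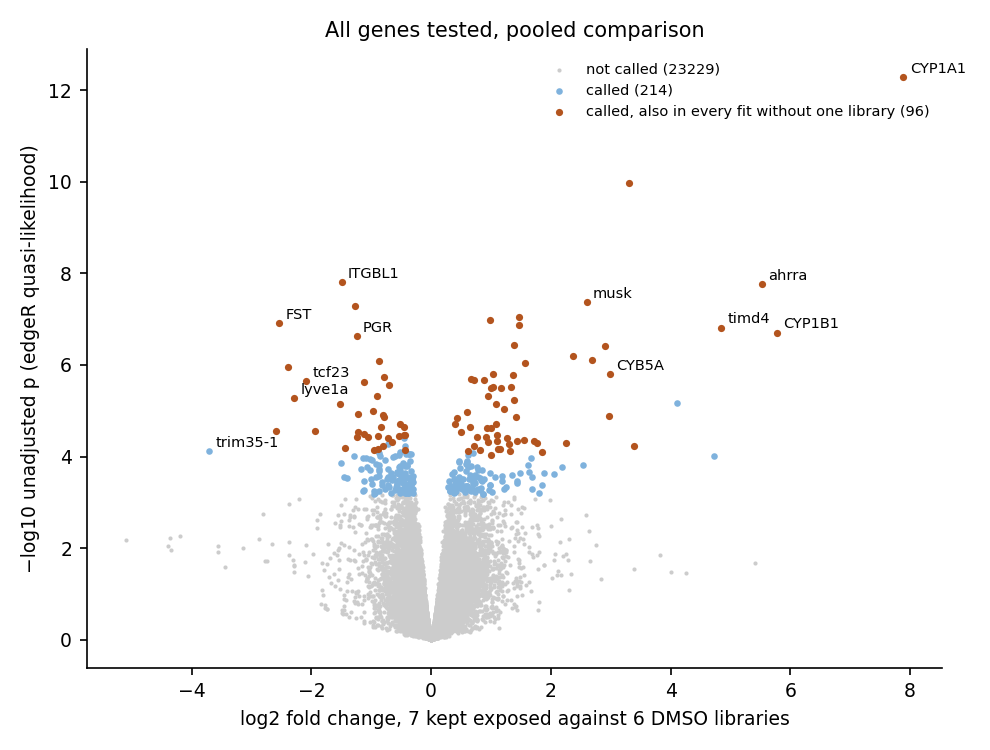
Log2 fold change of the 7 kept exposed against the 6 DMSO libraries (x axis) and -log10 of the unadjusted p of edgeR's quasi-likelihood test (y axis) for the 23539 genes tested. Of 310 called genes, the 96 also called in every fit without 1 library are shown in brown, and CYP1A1 lies farthest right at 7.89.

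Of 12 tested AHR target genes 6 rose, 0 fell, and the median log2 fold change was 1.34. Over all genes tested 0.667% rose and 0.65% fell, and the pooled calls in each list further on stand beside these shares. The AHR target list includes CYB5A and was written with earlier results of these data known. The 6 that rose were CYP1A1, CYP1B1, cyp1c1, ahrra, tiparp and CYB5A, and in each of them every kept library was above every DMSO library. Of these, CYP1B1 and ahrra passed the filter on low counts through the kept libraries, so their calls are a description. The calls to set beside the share over all genes are those of CYP1A1, cyp1c1, tiparp and CYB5A. CYP1A1 (ENSDARG00000098315), the monooxygenase most used as a marker of AHR activity, was counted at 2.43, 3.22 and 4.85 CPM in DMSO (lowest, median and highest of 6). In the kept libraries it was at 664, 828, 409.6 and 728 CPM (3 nM replicates 1, 2, 3 and 5) and at 815, 1340.2 and 1125 CPM (10 nM replicates 2, 3 and 4). The lowest exposed library, 3 nM replicate 3, was thus far above the highest DMSO library. The log2 fold change was 7.89 ± 0.33 (SE, edgeR adjusted p = 1.23e-08), and it was 7.77 to 8.01 with any 1 library left out.

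CYP1B1 (ENSDARG00000068934), a monooxygenase that also acts on steroids, was almost silent in DMSO at 0.137 to 0.579 CPM with a median of 0.467. The kept 3 nM libraries had 13.9, 13.2, 5.50 and 12.8 CPM, and the kept 10 nM libraries 22, 46.5 and 46.3 CPM. The concentrations did not overlap, as in 4.76% of the 24553 genes tested with every 10 nM library higher and 4.17% with every one lower. The pooled log2 fold change was 5.78 ± 0.59 (SE, edgeR adjusted p = 0.000384). ahrra (ENSDARG00000099702), the repressor that competes with AHR, had 0 to 0.461 CPM in DMSO with a median of 0.347. It had 13.9, 12, 10.8 and 5.43 CPM in the kept 3 nM libraries and 21.0, 11.4 and 31.3 CPM in the kept 10 nM ones. All 7 were above all 6 DMSO libraries, at a log2 fold change of 5.53 ± 0.49 (SE, edgeR adjusted p = 0.000103). CYP1B1 had 4 to 19 and ahrra 0 to 13 raw counts per DMSO library, so they passed the filter on low counts through the kept libraries. Their tests are therefore given as a description. Both were also called with no such filter.

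cyp1c1 (ENSDARG00000101195), a fish CYP1 gene with a close tandem copy, was at 1.62, 1.97 and 9.78 CPM in DMSO (lowest, median, highest), and DMSO replicates 3 and 6 were the high ones. The kept libraries had 27.4, 26.6, 13.1 and 18.5 CPM at 3 nM and 44.2, 79.9 and 55.2 CPM at 10 nM, none of them as low as DMSO. It rose by 3.39 ± 0.57 on the log2 scale (edgeR adjusted p = 0.0159). The copy, cyp1c2, was at 7.40 to 15 CPM in DMSO and at 9.58, 12.1, 7.49 and 7.10 CPM in the kept 3 nM libraries, so these groups overlapped. Its kept 10 nM libraries had 15.7, 30.6 and 20.7 CPM, above all others of the 13. Its pooled value was 0.46 ± 0.32 (edgeR adjusted p = 0.448), while 10 nM alone against DMSO gave 1.07 ± 0.23 (adjusted p = 0.0351). How reads were shared between the copies in the authors' counting is not stated in the labels.

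CYB5A (ENSDARG00000098589), cytochrome b5, which passes electrons to cytochrome P450 enzymes, was at 23.9, 29.0 and 44.9 CPM in DMSO (lowest, median, highest). In the kept libraries it was at 209, 127, 97.9 and 146 CPM at 3 nM and at 356, 452 and 348 CPM at 10 nM. The 3 steps from DMSO to 3 nM to 10 nM did not overlap. The pooled log2 fold change was 2.99 ± 0.37 (SE, edgeR adjusted p = 0.00171). tiparp, an ADP-ribosyltransferase that limits AHR activity, was at 39.5 to 52.5 CPM in DMSO, at 58.9 to 85.0 CPM in the kept 3 nM libraries and at 106 to 128 CPM in the kept 10 nM ones. It was already expressed in controls and rose by 0.95 ± 0.17 (edgeR adjusted p = 0.0139).

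The other tested members did not pass. foxq1b, a forkhead factor, had a log2 value of 1.04 ± 0.27 (edgeR adjusted p = 0.07), and its paralog FOXQ1 one of 1.64 ± 0.79 (adjusted p = 0.28) at levels of 0 to 1.09 CPM in DMSO and 0.214 to 3.16 CPM in the kept libraries. NQO1, a quinone reductase that mammals induce through AHR, had -0.05 ± 0.15, the second repressor gene ahrrb -0.06 ± 0.16 and cyp1d1 0.13 ± 0.11. wfikkn1 did not pass the filter on low counts in the pooled comparison, at 0.0343 to 0.640 CPM in DMSO and 0.191 to 0.642 CPM in the kept libraries.

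**Figure D3:**
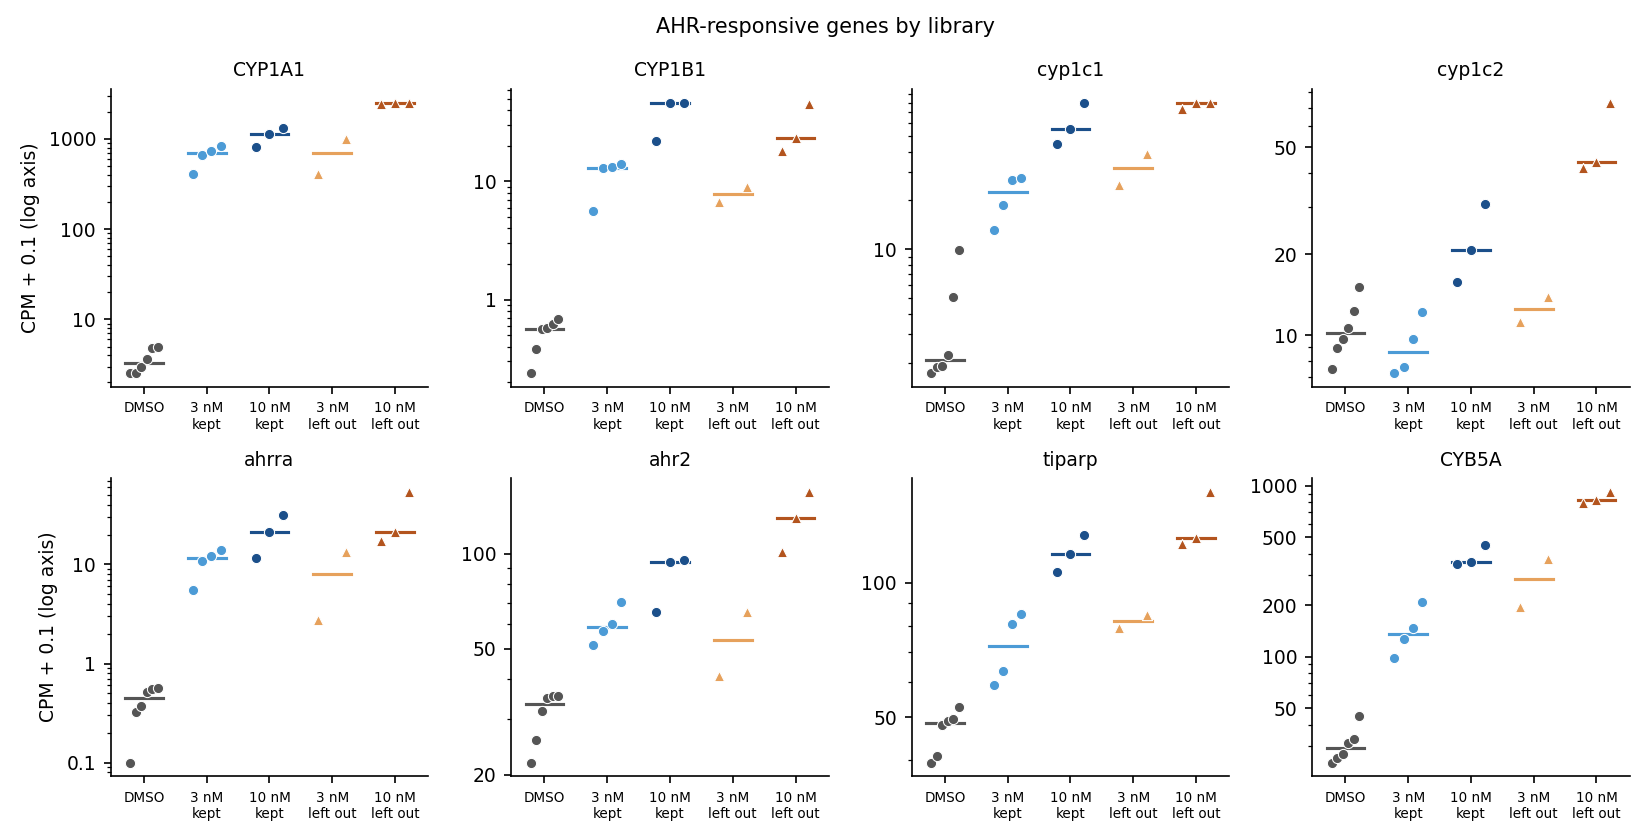
CPM plus 0.1 (log axis) of 8 genes of AHR signalling in each library, with the median of each group as a line. For CYP1A1, CYP1B1, cyp1c1, ahrra, ahr2, tiparp and CYB5A every kept exposed library (blue circles) lies above every DMSO library (grey), and for cyp1c2 the kept 3 nM libraries overlap the DMSO range. Left-out libraries (triangles) are shown for comparison and were not tested.

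Among the receptors and their partners only ahr2 changed of 8 tested members, at a list median of 0.01. ahr2 (ENSDARG00000021833) was at 21.7, 33.3 and 35.5 CPM in DMSO (lowest, median, highest), at 59.9, 70.2, 51.3 and 56.8 CPM in the kept 3 nM libraries and at 65.2, 93.7 and 95.0 CPM in the kept 10 nM ones. Every kept library was above every DMSO library, and the log2 fold change was 1.17 ± 0.16 (SE, edgeR adjusted p = 0.00222). The other receptors had log2 values of 0.28 ± 0.39 (ahr1a) and 0.01 ± 0.14 (ahr1b). The partner arnt had -0.38 ± 0.12 (adjusted p = 0.105) and ARNT2 -0.16 ± 0.14, and the co-chaperone genes PTGES3 (ENSDARG00000037284) and PTGES3 (ENSDARG00000089626) had 0.08 and 0.01. HSP90AB1 was among the genes used by the rule and is described further on.

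The 12 largest increases among called, named genes averaging 1 CPM or more were CYP1A1, CYP1B1, ahrra, timd4, jac2, cyp1c1, ENSDARG00000097714, CYB5A, CCR9, musk, TIMP4 and FLVCR2. timd4 (ENSDARG00000077257), a receptor by which macrophages bind phosphatidylserine on dying cells, had 0 to 4 raw counts in each DMSO library. In the kept libraries it had 0.740, 2.51, 1.45 and 1.63 CPM at 3 nM and 4.20, 5.10 and 2.86 CPM at 10 nM, against 0 to 0.122 CPM in DMSO. No kept library was as low as DMSO, and the log2 fold change was 4.84 ± 0.54 (SE, edgeR adjusted p = 0.000328). The gene passed the filter on low counts through the kept libraries, so its test and its calls under the alternatives are given as a description. It was also called with no such filter. Fewer cells of a type and less RNA per cell cannot be told apart in these bulk samples, here and in all that follows.

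musk (ENSDARG00000098764), a receptor kinase known from the neuromuscular junction, went from 1.45 to 2.56 CPM in DMSO (median 2.17) to 5.53, 16, 14.8 and 16.7 CPM in the kept 3 nM libraries and 13.2, 14.1 and 7.64 CPM in the kept 10 nM ones. All kept libraries were higher, with 3 nM replicate 1 lowest among them, and the log2 fold change was 2.60 ± 0.26 (edgeR adjusted p = 0.000202). ENSDARG00000097714, which has a clone name only, was at 1.75 to 2.63 CPM in DMSO and at 13 to 29.5 CPM in the kept libraries, an increase of 3.30 ± 0.22 (adjusted p = 1.27e-06). CCR9, a chemokine receptor, rose by 2.69 ± 0.34, from at most 1.34 CPM in DMSO to 2.87 to 10.47 CPM, and FLVCR2, a membrane transporter, by 2.37 ± 0.29, from at most 1.5 CPM to 2.87 to 9.56 CPM.

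TIMP4, an inhibitor of matrix metalloproteinases, and jac2 were less steady. TIMP4 had 3.99 CPM in DMSO replicate 1 and 0.419 to 1.06 CPM in the other DMSO libraries, against 3.30 to 11.05 CPM in the kept ones. The ranges overlapped, and its log2 fold change of 2.53 ± 0.50 (edgeR adjusted p = 0.0273) lost its call without any 1 of DMSO replicates 4 and 6 and the 3 kept 10 nM libraries, at adjusted p of 0.0515 to 0.0668. jac2 had 1 to 6 raw counts per DMSO library and ranged from 4 counts (10 nM replicate 2) to 256 counts (3 nM replicate 5) in the kept ones. Its log2 fold change of 4.72 (adjusted p = 0.0205) lost its call without DMSO replicates 1, 4 or 6. It was tested in 7 of the 13 fits without 1 library, since in the other 6 it failed the filter on low counts, and it passed that filter in the pooled comparison through the kept libraries, so it is given as a description. It is a member of the intestinal epithelium list given further on.

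Other increases, chosen after their values were seen from the 96 genes called with any 1 library left out, were each higher in all 7 kept libraries than in any DMSO library. GUCY1A1, a subunit of the guanylate cyclase that senses nitric oxide, went from 11.1 to 16.2 CPM in DMSO to 26.2 to 49.7 CPM (log2 fold change 1.46). FZD9, a Wnt receptor, went from 4.50 to 7.55 CPM to 12 to 20.8 CPM (1.47). HES1, a transcriptional repressor downstream of Notch, went from 5.34 to 11.6 CPM to 13.9 to 28.1 CPM (1.37). CXXC5, a zinc finger protein of Wnt signalling, went from 5.79 to 10.6 CPM to 12.2 to 32.6 CPM (1.41), and tsc22d3, a gene induced by glucocorticoids in mammals, from 18.3 to 38.1 CPM to 44.6 to 95.0 CPM (1.11). Their edgeR adjusted p-values lay between 0.000303 for FZD9 and 0.0173 for tsc22d3. sult1st1, a cytosolic sulfotransferase, and edn1, the vasoconstrictor peptide endothelin, rose by 1.34 and 1.30.

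The 12 largest decreases were trim35-1, aadacl4, FST, lyve1a, tcf23, ID1, SLC3A1, ucmaa, ITGBL1, TAGLN, fabp4a and FABP7. Per kept library aadacl4 had 3 to 18 and lyve1a 4 to 18 raw counts. They passed the filter on low counts through the DMSO libraries, so their tests are given as a description. Both were also called with no such filter. FST, ITGBL1 and ID1 belong to or act beside activin and TGF-beta signalling, which in the testis carries signals between Sertoli cells and germ cells. FST (ENSDARG00000057992), follistatin, which binds and blocks activin, was at 30.4, 60.4 and 86.4 CPM in DMSO (lowest, median, highest). The kept libraries had 16.6, 8.52, 10.8 and 9.76 CPM at 3 nM and 9.65, 9.13 and 7.17 CPM at 10 nM. Every kept library was below every DMSO library, and the gene fell by 2.54 on the log2 scale (SE 0.26, edgeR adjusted p = 0.000312). The second gene with the symbol FST (ENSDARG00000052846) had a value of -0.55 ± 0.21 (adjusted p = 0.18).

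ITGBL1 (ENSDARG00000040985), a secreted protein with integrin beta-like repeats, was at 44.5, 60.1 and 71.4 CPM in DMSO (lowest, median, highest). The kept libraries had 24.9, 25.5, 25.7 and 16.7 CPM at 3 nM and 15.8, 18.2 and 23.7 CPM at 10 nM, again all below DMSO. It fell by 1.49 (SE 0.14, edgeR adjusted p = 0.000103), with 1.42 to 1.54 as the range of that fall when any 1 library was left out. The list of activin, follistatin and TGF-beta genes includes ITGBL1 and was written with earlier results of these data known. In it 7 of 28 tested members fell, 1 rose, and the median was -0.23, beside 0.65% lower and 0.667% higher over all genes. The activin subunit genes INHBA (ENSDARG00000012671) and INHBA (ENSDARG00000024759) fell by 1.28 and 1.06, the inhibin subunit inha by 0.48, the activin receptor ACVR2A by 0.30 and the signal transducer SMAD3 (ENSDARG00000036096) by 0.44. BAMBI (ENSDARG00000055381), a decoy receptor that dampens TGF-beta signals, rose by 0.60 ± 0.12 (adjusted p = 0.0235). Of the 28 members 12 had positive values. amh, the Sertoli cell hormone, did not pass at -0.60 ± 0.21 (adjusted p = 0.157). Without DMSO replicate 1 the list had 3 members lower and 1 higher. INHBA (ENSDARG00000012671) lost its call without DMSO replicates 1 or 6, at adjusted p of 0.052 and 0.0547, and SMAD3 (ENSDARG00000036096) in the fit of all 18 libraries, at 0.105. INHBA (ENSDARG00000024759), ACVR2A and BAMBI (ENSDARG00000055381) were not among the 96 genes called with any 1 library left out.

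tcf23 (ENSDARG00000087381), a basic helix-loop-helix factor, was at 9.51, 11.4 and 24.9 CPM in DMSO (lowest, median, highest) and at 1.80 to 4.99 CPM in the kept libraries. The groups did not overlap, and it fell by 2.09 (SE 0.28, edgeR adjusted p = 0.00186). SLC3A1 (ENSDARG00000017165), a subunit of an amino acid transporter, fell by 1.52 (SE 0.23), from 11.4 to 27.9 CPM to 3.68 to 7.70 CPM, also without overlap. ID1, an inhibitor of helix-loop-helix factors and a target of BMP signals, was at 30.7 to 124 CPM in DMSO and at 13.05 to 38.1 CPM in the kept libraries. Its ranges overlapped through 3 nM replicate 1, the highest kept library, and DMSO replicate 2, the lowest control, and it fell by 1.94 (SE 0.31, adjusted p = 0.011).

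trim35-1 (ENSDARG00000052037), of a family of ubiquitin ligases, fell by 3.70 (edgeR adjusted p = 0.0181), but its high and low libraries did not follow the treatment. It was at 16.9, 16.9, 16.1 and 17.9 CPM in DMSO replicates 1 to 4 and at 1.13 and 0.854 CPM in DMSO replicates 5 and 6. All 7 kept libraries had 0.662 to 1.14 CPM, and among the left-out libraries 10 nM replicates 5 and 6 had 14.5 and 13.3 CPM while the other 3 had 0.959 to 1.49 CPM. Its levels thus fell into a high and a low class with none between, and libraries with DMSO and with PCB126 stood in both. The call was lost without 10 nM replicate 2 or 3, at adjusted p of 0.0501 and 0.0509.

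PGR (ENSDARG00000035966), the nuclear progestin receptor, and LGR4, a receptor for R-spondins, were chosen after their values were seen from the genes called with any 1 library left out. PGR was at 21.9, 36.2 and 39.2 CPM in DMSO (lowest, median, highest) and at 11.2, 17.5, 14.7 and 12.7 CPM in the kept 3 nM and 12.3, 15.9 and 16.5 CPM in the kept 10 nM libraries. The groups did not overlap, and it fell by 1.24 (SE 0.14, edgeR adjusted p = 0.000428), a call lost in the fit of all 18 libraries (adjusted p = 0.0754). LGR4 fell by 0.91, from 53.6 to 98.5 CPM to 30.4 to 45.7 CPM, without overlap, and TGFBR2 (ENSDARG00000034541), the type II TGF-beta receptor, likewise chosen, by 0.45 (adjusted p = 0.00965).

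**Figure D4:**
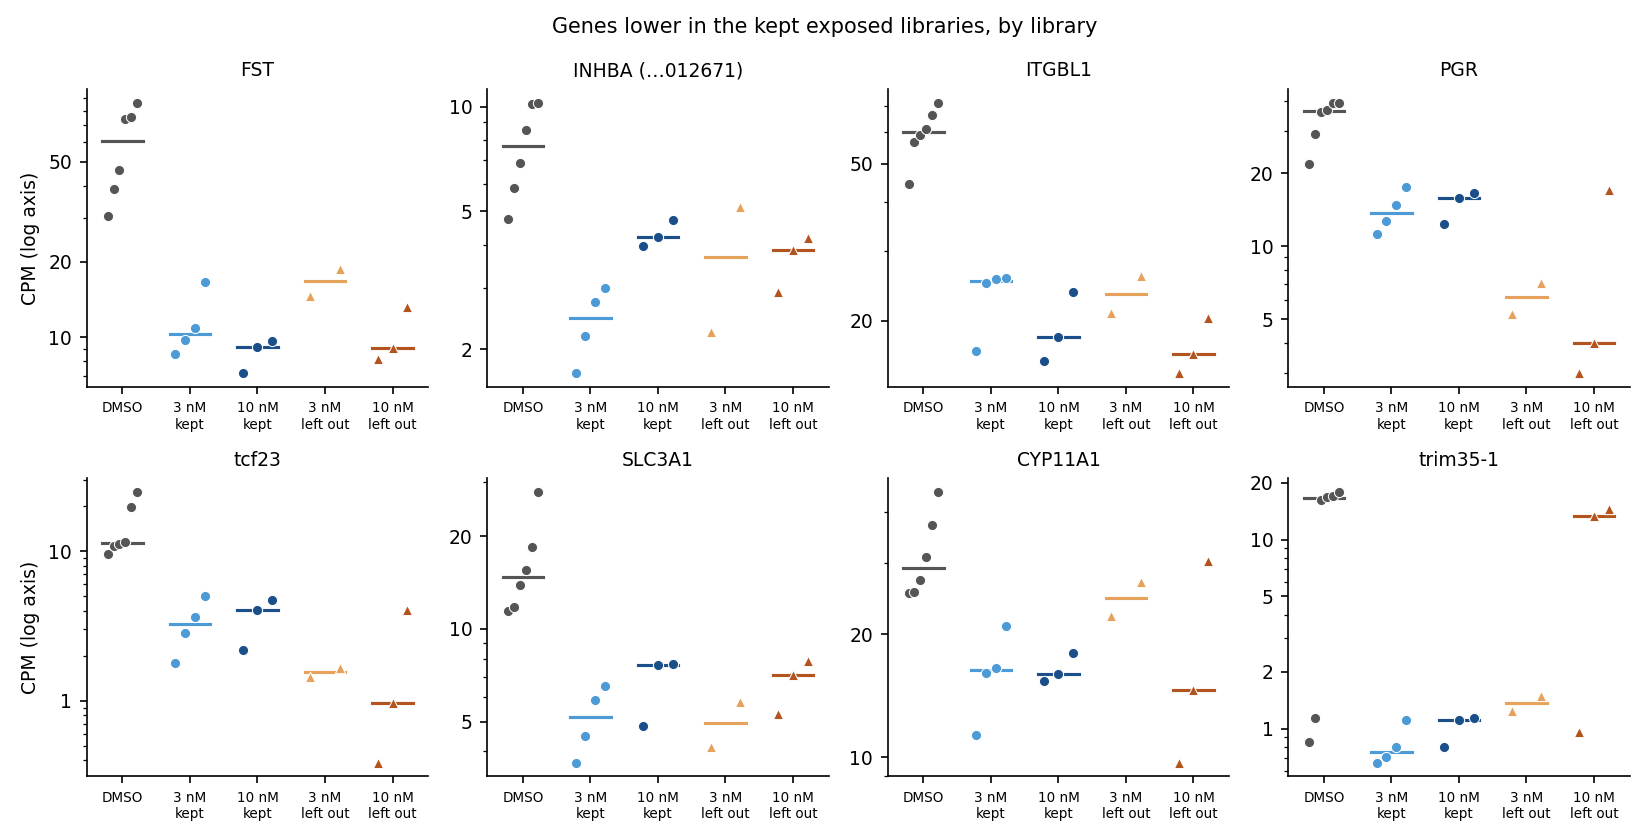
CPM (log axis) in each library of 8 genes that were lower in the kept exposed libraries, with the median of each group as a line. For all but trim35-1 every kept library (blue circles) lies below every DMSO library (grey), and trim35-1 has 4 DMSO libraries at 16.1 to 17.9 CPM and 2 near the kept level. Left-out libraries (triangles) were not tested.

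Among all genes tested, 0.65% were called lower, 0.667% were called higher and 52.9% had negative values. Of 37 tested smooth muscle and connective tissue genes 3 fell, 0 rose, 31 had negative values, and the median was -0.46. The 3 were COL5A2 (-0.84 ± 0.14, edgeR adjusted p = 0.00965) and COL1A1 (ENSDARG00000035809, -0.64 ± 0.14), which encode fibrillar collagens, and TAGLN (-1.46 ± 0.30), an actin-binding protein of smooth muscle. Summed over the list, DMSO libraries had 1295 to 2848 CPM and kept libraries 843 to 1320.3 CPM, and DMSO replicate 1 was highest. Without it the median was -0.29 and COL5A2 alone of the list was called. Of 13 adipocyte genes 2 fell, the fatty acid-binding protein gene fabp4a by 1.44 and the lipase gene LPL (ENSDARG00000087697) by 1.14, at a median of -0.21. fabp4a was at 126.1 to 287 CPM in DMSO and at 36.3 to 99.7 CPM in the kept libraries, with no overlap. Without DMSO replicate 1 the adipocyte median was -0.13, fabp4a was called and LPL (ENSDARG00000087697) was not, at an adjusted p of 0.0772. The brain-type fatty acid-binding protein gene FABP7 fell by 1.41. Of 14 blood vessel genes 2 fell, CLDN5 (ENSDARG00000014059), a tight junction protein, by 0.52 and plvapb, a protein of endothelial diaphragms, by 0.93, at a median of -0.24. The vessel list names cldn5b and the Sertoli cell list cldn5a, and this CLDN5 gene was matched to both by the shared symbol. It is thus counted in both lists, and which copy it is was not settled. Without DMSO replicate 1 the vessel median was -0.19 and plvapb was not called, at an adjusted p of 0.0779. lyve1a, the hyaluronan receptor of lymphatic vessels, given as a description, fell by 2.29 (SE 0.34), from 1.13 to 3.46 CPM to 0.171 to 0.701 CPM. stab1, a scavenger receptor of endothelium and macrophages named after its value was seen, fell by 0.79. The part that the amount of such tissue in each sample had in these values was not tested.

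Steroid synthesis was represented by 22 tested genes, of which CYP11A1 fell and 0 rose, at a median of -0.12. CYP11A1 (ENSDARG00000092696), the side-chain cleavage enzyme that starts steroid synthesis, was at 25.3, 29.1 and 44.8 CPM in DMSO (lowest, median, highest). The kept libraries had 20.9, 16.1, 16.6 and 11.3 CPM at 3 nM and 16, 18.03 and 15.4 CPM at 10 nM, all below DMSO. It fell by 0.98 (SE 0.15, edgeR adjusted p = 0.00544), and it was called with any 1 library left out but not in the fit of all 18 libraries (adjusted p = 0.0572). STAR, which moves cholesterol into mitochondria, was at 209.7 to 493.3 CPM in DMSO and 80.9 to 238 CPM in the kept libraries, and CYP17A1 at 55.0 to 163 CPM and 30.7 to 64.8 CPM, and neither was called. The summed list was 826 to 2321 CPM in DMSO, highest in replicate 1, and 550.2 to 1062 CPM in the kept libraries.

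All 26 tested meiosis genes had negative values, where 52.9% of all genes tested did, and 12 had an unadjusted p under 0.05. Over all genes 4417 of 23539 had such a p, and the counts of this kind in each list stand beside that share. Their median was -0.27, which was -0.19 without DMSO replicate 1, and by concentration it was -0.14 at 3 nM and -0.52 at 10 nM. In the pooled comparison 1 of them was called, MSH4, which acts in meiotic crossover formation. MSH4 (ENSDARG00000075826) was at 132 to 199 CPM in DMSO and at 88.8 to 123 CPM in the kept libraries, without overlap, and fell by 0.53 (SE 0.11, edgeR adjusted p = 0.0312). That call was lost without DMSO replicates 1, 2, 4 or 6, 3 nM replicate 5 or any kept 10 nM library, at adjusted p of 0.0519 to 0.077. Of 27 mitotic cell cycle genes 0 were called, with a median of -0.13 and 10 at an unadjusted p under 0.05, and of 25 spermatid and flagellum genes 0 were called, with a median of -0.24, 24 negative values and 5 at an unadjusted p under 0.05. Of 15 spermatogonial and germline identity genes 0 were called, while 12 had positive values, 7 an unadjusted p under 0.05, and the median was 0.31. Of 14 piRNA pathway genes ASZ1 alone was called, higher by 0.27, with 6 at an unadjusted p under 0.05 and a median of 0.18.

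Sertoli cell genes went both ways. Of 17 tested 2 rose and 2 fell, at a median of -0.20. GATA6, a transcription factor of somatic gonadal cells, rose by 0.58 and NR0B1 (DAX1), an orphan nuclear receptor, by 0.83, while inha and CLDN5 fell as given above. This CLDN5 gene (ENSDARG00000014059) is the same one that is counted among the blood vessel genes. NR0B1 was at 5.58 to 12.3 CPM in DMSO and at 10.8 to 21.4 CPM in the kept libraries, and the edgeR adjusted p was 0.0445. igf3, a gonad-specific growth factor of fish, had a value of 1.98 ± 0.47 and was not called (adjusted p = 0.0573). Its DMSO replicates 1 to 3 had 3.05 to 4.29 CPM and DMSO replicates 4 to 6 had 0.567 to 1.27 CPM, against 3.91 to 13.3 CPM in the kept libraries.

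Of 33 leukocyte genes 2 rose, timd4, given above as a description, and lyz, lysozyme, and 0 fell, at a median of -0.03. lyz was at 2.37 to 6.5 CPM in DMSO, at 14.2, 5.6, 10.01 and 15.6 CPM in the kept 3 nM libraries and at 16.3, 24.7 and 23.7 CPM in the kept 10 nM ones. Its ranges overlapped through 3 nM replicate 2, and it rose by 1.77 ± 0.31 (edgeR adjusted p = 0.0142), a call lost in the fit of all 18 libraries (adjusted p = 0.402). The summed list was 674 to 957 CPM in DMSO and 752 to 1014 CPM in the kept libraries. Of 27 immediate early genes 3 rose, egr1, BTG2 and ier2b, by 1.08, 0.52 and 0.87, and 0 fell, at a median of 0.12. None of these 3 was called without DMSO replicate 1, at adjusted p of 0.0779 for egr1, 0.0551 for BTG2 and 0.0977 for ier2b. Of 29 interferon response and antigen processing genes RSAD2, an antiviral enzyme, rose by 1.19, 0 fell, and the median was 0.20. RSAD2 too was not called without DMSO replicate 1, at an adjusted p of 0.0718.

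Intestinal epithelium genes marked 1 kept library. Their summed level was 46.2 to 101 CPM in DMSO and 63.4 to 100.1 CPM in 6 kept libraries, but 1059 CPM in 3 nM replicate 1. There lgals2b, a galectin, had 399.6 CPM against 0.221 to 4.75 CPM in the other 12 libraries. jac2 alone of 16 tested members was called, at a list median of 0.61, which was 0.24 without 3 nM replicate 1. In the left-out 10 nM libraries the sum was 259 to 590.1 CPM. Without 3 nM replicate 1 the pooled comparison had 263 calls, 207 of them among the 310, and CYP1A1 had a log2 fold change of 7.95.

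The remaining lists gave few calls. Of 9 oocyte genes ZAR1 rose by 0.76, 0 fell, and the median was 0.23, and its call was lost in the fit of all 18 libraries (adjusted p = 0.406). Of 9 erythrocyte genes 0 were called, 2 at an unadjusted p under 0.05, and their median of -0.40 was 0.09 without DMSO replicate 1. Among 32 circadian clock genes PER1 fell by 0.60 (median -0.09), and among 21 insulin-like growth factor genes IGFBP2 fell by 1.17 (median -0.00). In the pooled comparison no gene was called by edgeR among 31 retinoic acid, 24 Nrf2 and antioxidant, 21 cholesterol synthesis, 21 heat shock and 17 DNA methylation genes. Of these 7, 5, 5, 5 and 0 had an unadjusted p under 0.05, beside 4417 of 23539 over all genes. Their medians were 0.10, 0.03, -0.19, -0.14 and 0.08. Of the 13 mitochondrially encoded genes 5 were used by the rule, and the other 8 had positive values at a median of 0.26 with none called and 2 at an unadjusted p under 0.05.

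**Figure D5:**
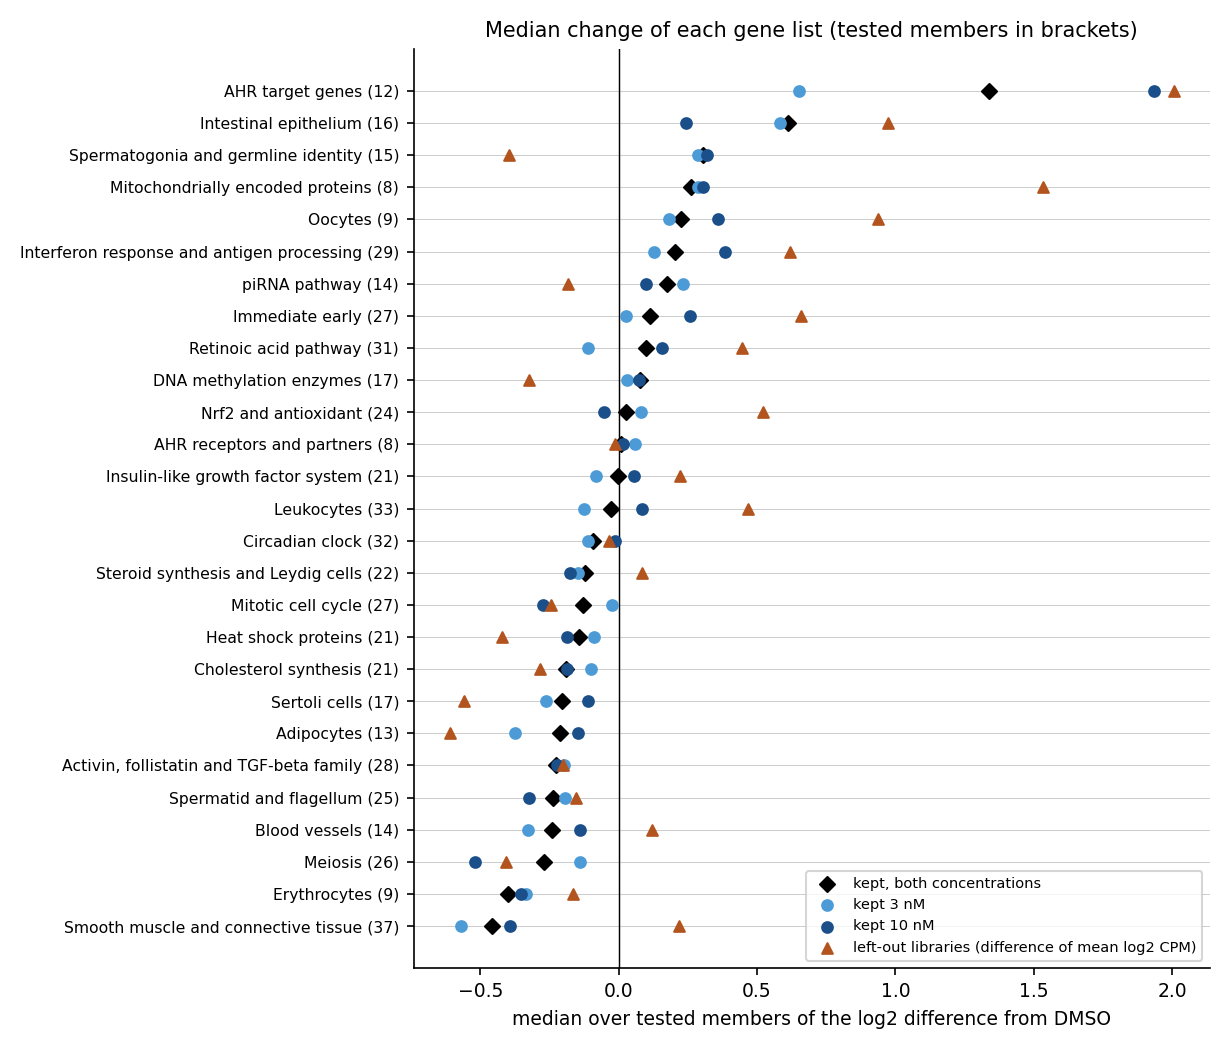
Median log2 difference from DMSO over the tested members of each of 27 gene lists, with the number tested in brackets, for the kept libraries together, by concentration, and for the left-out libraries, where it is a difference of mean log2 CPM. AHR target genes lie highest at 1.34 and smooth muscle and connective tissue genes lowest at -0.46 in the kept libraries, and the left-out libraries were not tested.

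Several calls near the threshold were lost when a single library was left out, some of them for nearly any library. Of the 13 fits without 1 library, the call was lost in 12 for inha, plvapb, ier2b and PER1, in 11 for LPL (ENSDARG00000087697) and NR0B1, in 10 for ASZ1 and in 9 for BTG2. It was lost in 8 for MSH4, TAGLN and COL1A1 (ENSDARG00000035809), in 7 for egr1, FABP7, GATA6 and CLDN5 (ENSDARG00000014059), in 6 for RSAD2, in 5 for IGFBP2 and in 4 for ucmaa. The largest adjusted p in these fits was 0.117, for plvapb. Without DMSO replicate 1 the edgeR adjusted p was 0.0520 for ucmaa, 0.0544 for FABP7, 0.0616 for IGFBP2 and 0.0621 for GATA6. It was 0.0633 for NR0B1, 0.0843 for ASZ1 and 0.0940 for inha. The calls of CYP1A1, cyp1c1, tiparp, CYB5A, ahr2, FST (ENSDARG00000057992), ITGBL1, ID1, lyz and fabp4a were lost in none of the 13 fits without 1 library. Those of CYP1B1, ahrra and timd4 were not lost either. These genes passed the filter on low counts through the kept libraries, so their calls are given as a description. In the fit of all 18 libraries, among further genes named above, the calls of TIMP4, trim35-1, aadacl4, ucmaa, TAGLN, edn1 and tsc22d3 were lost, at adjusted p of 0.0533 to 0.184. Lost there as well were those of inha, plvapb, ier2b, PER1, LPL (ENSDARG00000087697), ASZ1, BTG2 and MSH4. So were those of COL1A1 (ENSDARG00000035809), egr1, GATA6, CLDN5 (ENSDARG00000014059), RSAD2, IGFBP2 and jac2. These lay at adjusted p of 0.0575 (LPL) to 0.577 (CLDN5).

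Each concentration was also set against the same 6 DMSO libraries, which both comparisons share. The 4 kept 3 nM libraries gave 65 calls (41 higher, 0.167%, and 24 lower, 0.0977%), which is 0.265% of 24553 genes tested, and the 3 kept 10 nM libraries gave 468 (251 higher, 1.02%, and 217 lower, 0.884%), which is 1.91%. AHR targets had 5 members called at 3 nM and 8 at 10 nM, the latter adding cyp1c1, cyp1c2 and foxq1b. Both counts include CYP1B1 and ahrra, whose calls are a description, as given above. CYP1A1 was at 7.54 ± 0.28 and 8.27 ± 0.29, CYP1B1 at 4.78 ± 0.36 and 6.53 ± 0.38, and CYB5A at 2.23 ± 0.20 and 3.63 ± 0.22 (log2 fold changes for 3 and 10 nM). FST was at -2.37 ± 0.32 and -2.78 ± 0.37 and CYP11A1 at -0.97 ± 0.19 and -0.96 ± 0.21. At 10 nM alone 5 meiosis genes were called lower, MSH4, rec8b, rad21l1, MEIOB and spata22, by 0.56 to 0.77. JUNB (ENSDARG00000104773) and mxa were called higher there at 1.22 and 1.12. Calls at 10 nM alone were not followed by name through the alternatives. The 217 lower calls became 16, 34 and 21 without 10 nM replicates 2, 3 and 4. In either direction, 10 nM gave calls in 6 of 27 immediate early, 4 of 33 leukocyte and 4 of 17 Sertoli cell genes. It gave them in 4 of 28 activin, follistatin and TGF-beta, 3 of 27 mitotic and 3 of 29 interferon and antigen processing genes. Retinoic acid genes had 2 of 31 called and Nrf2 and antioxidant genes 1 of 24, beside 1.91% of all genes. The receptor, steroid, connective tissue, vessel, oocyte and insulin-like growth factor lists had 1 call each.

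No gene was called between the 3 kept 10 nM and the 4 kept 3 nM libraries, 0% of 24553 by edgeR, with 1661 at an unadjusted p under 0.05 and 40 called by DESeq2. The smallest edgeR adjusted p among AHR targets was 0.421, shared by CYP1B1 with a log2 difference of 1.75 ± 0.35, CYB5A with 1.40 ± 0.24, cyp1c2 with 1.30 ± 0.26 and tiparp with 0.69 ± 0.14. These 4 were named for the smallest p of the list. For CYP1A1 the difference was 0.73 ± 0.26, and 10 nM replicate 2 at 815 CPM lay below 3 nM replicate 2 at 828 CPM.

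Levels in the left-out libraries are given as a description, since a measured value set them apart, and their differences are taken from the same 6 DMSO libraries. FST had 18.7 and 14.6 CPM in the left-out 3 nM libraries and 9.01, 13.2 and 8.17 CPM in the left-out 10 nM ones, beside 7.17 to 16.6 CPM in the kept ones. lyz had 585.6 and 754 CPM in 10 nM replicates 1 and 5 and 93.0 CPM in 10 nM replicate 6, where the kept libraries reached 24.7 CPM. Of the 157 genes called higher, 154 were also higher than DMSO in mean log2 CPM of the left-out libraries. Of the 153 called lower, 142 were also lower there. Some lists differed in sign. Spermatogonial genes had a median of -0.40 in the left-out libraries and 0.31 in the kept ones, and connective tissue genes one of 0.22 against -0.46. The left-out medians are of differences in mean log2 CPM and the kept ones of edgeR log2 fold changes. The summed connective tissue list had 1009 and 1070 CPM in the left-out 3 nM libraries. In the left-out 10 nM ones it had 1531, 1786 and 3367 CPM.

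Of the 22 genes used by the rule, the mitochondrial MT-CO1 was at 5115 to 9076 CPM in DMSO, at 5864 to 10486 CPM in the kept libraries and at 11357 to 21279 CPM in the left-out ones. HSP90AB1, whose protein holds AHR in the cytosol, was at 4649 to 5731 CPM in DMSO and at 5018 to 5743 CPM in the kept libraries. gsdf, a Sertoli cell factor of fish, was at 1381 to 2059 CPM in DMSO and at 1663 to 2679 CPM in the kept libraries, and the germ cell Argonaute gene PIWIL1 at 2206 to 2829 CPM and 2337 to 3457 CPM. In each of these 4 genes the kept and DMSO ranges overlapped.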

How the data were processed

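RNA was measured in 18 testis libraries, 6 for each of DMSO, 3 nM and 10 nM PCB126. The authors deposited raw counts of reads for each gene. FastQC, STAR, HTSeq, edgeR and GRCz10 appear in the submitters' processing notes with no version. Libraries were stranded, per the labels' protocols. Neither names the strand setting or the annotation used in counting, so overlapping genes and close paralogs are uncertain. The tables hold 35117 gene identifiers, 0 rows name no gene, and 27000 identifiers have a symbol. The methylation region tables were not used here. Replicates differed beyond sampling noise (chi-square per degree of freedom at least 17.3), and each counts as 1 sample.

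The test, first checked on simulated data, was that of edgeR 4.0.16 under R 4.3.3 (filterByExpr, TMM, robust quasi-likelihood fit, two-sided F-test). The pooled fit of 13 libraries had 11 residual degrees of freedom and the fit by concentration 10. Benjamini-Hochberg adjustment ran over all genes tested, including the 22 used by the rule, which were left out of all counts, and genes were called under 0.05. SE is the log2 fold change divided by the square root of F. CPM uses TMM-scaled totals of all 18 libraries, and 3 counts equal 0.0915 to 0.178 CPM in the 13 libraries, which covers counting error only. Alternatives were RLE scaling, no filter, a replicate block, rule genes removed, a fit of 18 libraries, concentrations as levels, DESeq2 1.42.0, stricter membership and leaving out each library. Stricter membership dropped 3 nM replicate 1 only, so it is the same fit as leaving out that library.

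Of 602 names in 27 lists 565 matched. Named genes were the members of both AHR lists (1 tested member is not reported here), the 12 largest called increases and decreases (symbol known, 1 CPM or more on average), up to 4 members of each other list by smallest p, and the genes used by the rule. Genes named beyond that are other called list members or were chosen after their values were seen. The libraries, lists, tests and alternatives were chosen with earlier results of these data known, so no pattern here is independent support of those results. Lists are described by counts and medians and were not tested.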

Additional observations from a re-analysis of the deposited data

Results flagged for a closer look

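In 22 of 334 groups of 6 DMSO or 7 kept libraries 1 library lay far from the rest of its group, where chance flags about 1 in 20 (16.7 of 334). In DMSO, replicate 1 was apart for HSP90AB1 at 5731 CPM, MSH4 at 199 CPM, sycp2 at 503.8 CPM, cahz at 158.6 CPM, ZAR1 at 4.55 CPM and SERPINH1 (ENSDARG00000019949) at 73.2 CPM. DMSO replicate 2 was apart for sult1st1 at 3.39 CPM. DMSO replicate 3 was apart for ahrra at 0.0 CPM, TEKT2 at 7.53 CPM and its total of 16.2 M counts. DMSO replicate 4 was apart for timd4 at 0.0 CPM and SLC15A1 (ENSDARG00000044528) at 0.248 CPM, replicate 5 for nfe2l2b at 4.77 CPM and replicate 6 for PTGES3 (ENSDARG00000037284) at 83.0 CPM. Genes were compared on log2 of CPM plus 0.1. Per DMSO library timd4 had 0 to 4 and ahrra 0 to 13 raw counts, so their flags rest on few reads. Among kept libraries, 3 nM replicate 1 was apart for lgals2b at 399.6 CPM, cldn15la at 6.93 CPM and si:dkey-238c7.12 at 4597 CPM. The kept library 3 nM replicate 5 was apart for ucmaa at 0.300 CPM, si:dkey-238c7.13 at 1051 CPM and LGR4 at 30.4 CPM. In the kept 10 nM libraries, replicate 3 was apart for IRF7 at 49.2 CPM and replicate 4 for FOXQ1 at 3.16 CPM.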

How the results depend on the processing

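For the kept exposed libraries against DMSO there were 310 calls. RLE scaling gave 301 (171 higher, 130 lower), no filter on low counts 239, genes used by the rule removed before scaling 293 (176 higher, 117 lower), and membership under 5% or at or below the highest DMSO share 263 with 6 members. Either membership dropped 3 nM replicate 1 only and is the same fit as the one without that library. A fit of all 18 libraries gave 84 (51 higher, 33 lower), concentrations as levels with their average 484, and DESeq2 1308. Leaving out 1 library gave 118 to 595 calls: 135, 157, 595, 132, 265 and 136 without DMSO replicates 1 to 6, 263, 277, 308 and 166 without 3 nM replicates 1, 2, 3 and 5, and 119, 118 and 147 without 10 nM replicates 2, 3 and 4. Kept 3 nM against DMSO (65 calls) had 27 in the fit of 18 libraries, 355 by DESeq2 and 23 to 68 with 1 library left out, the lowest without 3 nM replicate 5, with 36, 30, 43 and 40 without DMSO replicates 4 and 6 and 3 nM replicates 2 and 3. Kept 10 nM against DMSO (468 calls) had 66, 1761 and 79 to 859, with 79, 85 and 97 without 10 nM replicates 4, 2 and 3, 859 without DMSO replicate 3, and 189 and 292 without DMSO replicates 2 and 4. Kept 10 nM against kept 3 nM (0 calls) had 40 by DESeq2 and 0 to 1 with 1 library left out, the 1 without 3 nM replicate 1. The cause of these differences was not tested.

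Replicate numbers showed no clear pairing of the samples. Over 9 pairs with the same number the correlation of deviations from the group means was -0.13 to 0.26, and 3 were over 0.1. Over 45 pairs with different numbers it was -0.22 to 0.28, and 9 were over 0.1. The same-number pairs are too few to decide whether the numbers pair the samples. With the replicate block the counts were 86 pooled, 25 at 3 nM, 37 at 10 nM and 0 between concentrations. In that fit the pooled calls of cyp1c1 and CYB5A (adjusted p = 0.0638 each), tiparp (0.0775), ID1 (0.0621), fabp4a (0.0676), lyz (0.0513), ZAR1 (0.0583), INHBA (ENSDARG00000012671, 0.0638), SMAD3 (ENSDARG00000036096, 0.138) and edn1 (0.142) were not made, while those of CYP1A1, CYP1B1, ahrra, ahr2, timd4, musk, FST (ENSDARG00000057992), ITGBL1, PGR and CYP11A1 were. Of the calls made, those of CYP1B1, ahrra and timd4 are a description, as given above. Not made either were those of ASZ1, BTG2, CLDN5 (ENSDARG00000014059), GATA6, LPL (ENSDARG00000087697), MSH4, NR0B1, PER1 and RSAD2. The same held for TIMP4, aadacl4, egr1, ier2b, inha, jac2, plvapb and ucmaa, and these further genes lay at adjusted p of 0.0505 (ucmaa) to 0.221 (ASZ1). Of the 57 called genes followed by name through the alternatives, none reversed its direction where it was tested. BAMBI (ENSDARG00000055381), ACVR2A, INHBA (ENSDARG00000024759) and TGFBR2 (ENSDARG00000034541) were not among these 57. With 3 to 7 libraries a group, genes that were not called cannot be taken as unchanged.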
